A study of Mus musculus with 205 samples.

Results

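The hammerhead ribozyme (HHR) on the 2-plasmid format of MitoKO, a library of base editors against the protein-coding genes of mouse mitochondrial DNA (mtDNA), was examined in 30 of the 205 samples of the series. They were chosen by their labels: all transient samples of the Nd3, Cytb, CoII and Atp6 constructs delivered on 2 plasmids with the ribozyme (2-plasmid-HHR, 12 samples) or without it (2-plasmid, 12 samples), and the 3 control samples of each format. NIH/3T3 mouse fibroblasts, an established cell line with unedited mtDNA, received both plasmids by lipid-based transfection and were sorted for GFP and mCherry, the markers co-expressed from the 2 plasmids. Expression of the editors was transient, and the plasmid of the L-strand monomer is described as carrying a CMV promoter. The pairs were number 32 for Nd3, 42 for Cytb, 46 for CoII and 50 for Atp6, and the labels give the same pair number with and without the ribozyme. The labels date the 2-plasmid-HHR samples to 7 d after transfection and the 2-plasmid samples to 14 d, although the study's scheme draws a 14 d recovery for the comparison. The 2-plasmid-HHR samples shared a MiSeq run and the 2-plasmid samples a NovaSeq run. Day, sequencing run and ribozyme therefore changed together, and their parts in any difference between the formats cannot be told apart. The titles of the 2-plasmid controls call them WT with an empty vector. Those of the 2-plasmid-HHR controls read WT with HHR and no pair number, and do not say which plasmid the cells received. Both are called empty vector here.

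A MitoKO editor is a DdCBE, a pair of TALE proteins that bind either side of a target in mtDNA and bring together the split parts of a bacterial cytidine deaminase, which turns C:G into T:A and prefers a C that follows a T. A hammerhead ribozyme is a short RNA that cuts its own strand. Placed between the stop codon of each DdCBE monomer and the poly(A) signal, the 3K19 ribozyme removes the poly(A) tail from the messenger RNA, which is then prone to decay, and it was introduced to lower the amount of editor in the cell. The question was how on-target and mtDNA-wide off-target editing compared with and without it.

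Each of the 4 constructs turns a TGA codon, which mouse mitochondria read as tryptophan, into the stop codon TAA. The change is a G to A on the strand printed below and comes from the deamination of the C opposite, on the complementary strand. The target sites are shown because on-target editing was read at a single base within them. They were read from the RefSeq mouse mtDNA of GRCm38, forward strand, with 14 bases on either side of the edited G, and the capitals mark the TGA codon:
Nd3: tctagttgcattcTGActcccccaaataa
Cytb: cgtaaattacgggTGActaatccgatata
CoII: catagggcaccaaTGAtactgaagctacg
Atp6: ttctttccaacacTGActagttaaactta
The substitution is written with the reference base, its mtDNA position and the edited base. G9526A in Nd3, a subunit of complex I, lies in codon 23 of 115 (MT:9512-9540, gene at 9459-9806). G14374A in Cytb, the cytochrome b of complex III, lies in codon 77 of 381 (MT:14360-14388, gene at 14145-15288), and the study numbers this site slightly differently. G7323A in CoII, the complex IV subunit that RefSeq calls COX2, lies in codon 104 of 227 (MT:7309-7337, gene at 7013-7696). G8069A in Atp6, a membrane subunit of ATP synthase, lies in codon 48 of 226 (MT:8055-8083, gene at 7927-8607). All 4 sites are in the single coding exon of an intronless gene. Besides the target, the printed window held 3 further C:G pairs with a T before the C for Nd3 and 2 for each of the others. For CoII this count includes a base at the window's edge, whose deciding neighbour lies outside the printed sequence. In all, the mtDNA has 16299 bp with 5989 C:G pairs, 1747 of them with a T before the C.

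The files give 3 values per sample: on-target editing (the percentage of C:G changed to T:A at the target base), average off-target editing (a mean percentage of such changes over the mtDNA) and mean coverage. With the ribozyme, mean coverage ranged from 1734 to 19446 (median 13982), and without it from 31439 to 95612 (median 73288). The depth at the target base is not given, and errors are therefore those between samples, with no counting interval. The p-values measure the spread between these samples, which may be technical.

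With the ribozyme, on-target editing was lower at all 4 genes and in every sample. For Nd3, it was 34.9%, 39.6% and 36.3% in 2-plasmid-HHR replicates 1, 2 and 3 (36.9% ± 2.38, SD, n = 3). Without the ribozyme, Nd3 stood at 63.4%, 63.5% and 63.1% (63.3% ± 0.202, SD, n = 3). Nd3 had the lowest editing of the 4 genes in both formats. For Cytb, the ribozyme samples gave 38.7%, 41.6% and 39.1% (39.8% ± 1.59, SD, n = 3). Their counterparts without it gave 64.6%, 64.2% and 64.5% (64.5% ± 0.205, SD, n = 3). The highest Cytb sample with the ribozyme thus lay well below the lowest without it. For CoII, the values were 44.2%, 46.7% and 44.0% with the ribozyme (45.0% ± 1.47, SD, n = 3). Without it they were 66.3%, 66.5% and 66.4% (66.4% ± 0.119, SD, n = 3). CoII was again without overlap between the formats. For Atp6, the most edited gene in both formats, the ribozyme samples reached 48.4%, 51.7% and 50.9% (50.3% ± 1.70, SD, n = 3). Atp6 without it was at 69.8%, 69.8% and 69.5% (69.7% ± 0.180, SD, n = 3).

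**Figure D1:**
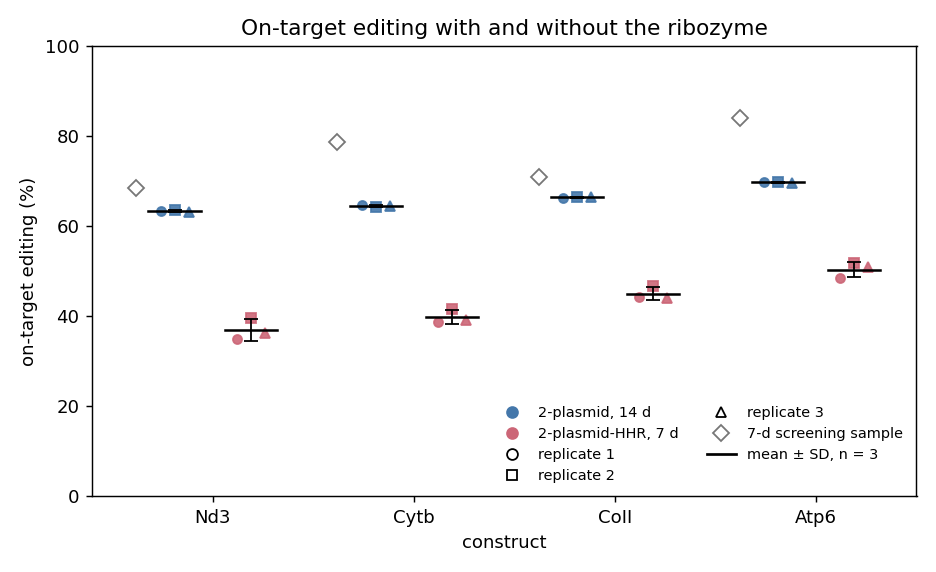
On-target editing in percent for each sample of the 4 constructs, 2-plasmid in blue (14 d) and 2-plasmid-HHR in red (7 d), with the symbol giving the replicate number, the black line and bars the mean ± SD (n = 3), and the grey diamond the single 7-d screening sample of the same pair. The ribozyme samples lie between 34.9% and 51.7%, all below the 2-plasmid samples, which lie between 63.1% and 69.8%.

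The difference, with minus without the ribozyme, was -26.4 percentage points ± 1.38 for Nd3, -24.7 ± 0.923 for Cytb, -21.4 ± 0.853 for CoII and -19.3 ± 0.987 for Atp6 (standard error of the difference, 3 samples against 3). Each of these had an exact permutation p of 0.10, two-sided, which is the smallest that 3 against 3 can give. Over the 4 constructs, mean on-target editing was 43.0% with the ribozyme and 66.0% without it, a difference of -22.9 percentage points ± 0.528 (exact permutation test within constructs, 160000 splits, p = 1.25e-05 and adjusted p = 3.12e-05 over the 5 tests made, lower in 12 of 12 samples). No smaller p is possible in this design. With the 4 samples of each replicate number averaged to 1 value, the test is 3 against 3 and p was 0.10 (exact permutation test). In relative terms, Nd3 kept 58.4% ± 2.18 of its on-target editing, Cytb 61.7% ± 1.43, CoII 67.7% ± 1.28 and Atp6 72.2% ± 1.41 (standard error). The order of the shares kept was the order of the editing levels themselves, and the 4 genes lay further apart with the ribozyme (13.4 points between Nd3 and Atp6) than without it (6.37 points). Whether the drop differed between the constructs was not tested. In the 2-plasmid format no 2 genes next to each other in this order overlapped, whereas with the ribozyme Nd3 and Cytb did.

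The on-target SD was 1.47 to 2.38 points with the ribozyme and 0.119 to 0.205 points without it. The study's legends call the samples of the 14 d experiment technical replicates and those of the format comparison biological replicates, so these spreads may not be of the same kind. Replicate 2 was the highest on target in 4 of 4 constructs with the ribozyme, and replicate 1 the lowest in 3 of 4. Averaged over the 4 genes, replicates 1, 2 and 3 stood at 41.6%, 44.9% and 42.6%. In the 2-plasmid format the same averages were 66.0%, 66.0% and 65.9%. What samples of the same number had in common is not stated in the labels.

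Off-target editing has to be read against the empty vector of the same run, because that background differed between the formats. In the 2-plasmid-HHR format the 3 empty-vector samples read 0.140%, 0.142% and 0.170% (0.151% ± 0.0169, SD, n = 3), at a mean coverage of 6440 to 18319. In the 2-plasmid format they read 0.0240%, 0.0240% and 0.0235% (0.0238% ± 0.00028, SD, n = 3), at a mean coverage of 31439 to 40402. The ribozyme background was thus 6.32 times as high, and its 3 samples spread over 0.0306 points. The run also held 6 F1 mice of the Atp6 editing experiment, whose average off-target percentages were 0.146% to 0.180%. These mice are not unedited controls: they carried 10.7% to 32.3% on-target editing at Atp6. The study kept them on a C57BL/6J background and analysed ear biopsies, not NIH/3T3 cells.

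Of the edited samples with the ribozyme, Nd3 stayed closest to the background, at 0.169%, 0.176% and 0.159% (0.168% ± 0.00841, SD, n = 3). Replicates 1 and 3 of Nd3 lay below the highest empty vector, and none of the 3 was above the 6 mice. Cytb was higher, at 0.212%, 0.210% and 0.183% (0.202% ± 0.0160, SD, n = 3). CoII reached 0.245%, 0.270% and 0.241% (0.252% ± 0.0154, SD, n = 3). Atp6 was at 0.237%, 0.255% and 0.251% (0.248% ± 0.00964, SD, n = 3). All 9 samples of Cytb, CoII and Atp6 exceeded every empty vector and every mouse of the run. The lowest mean coverage of the format, 1734, belonged to Cytb replicate 2, whose 0.210% stood beside 0.212% in replicate 1 at a coverage of 13757. Against the 3 empty vectors, the exact permutation p was 0.30 for Nd3 and 0.10 for each of Cytb, CoII and Atp6 (adjusted p = 0.30 and 0.13 over the 4 constructs). Over all 12 samples the excess was 0.0667 percentage points ± 0.0146 (standard error, exact permutation test of 12 against 3 samples, 455 splits, p = 0.0088, adjusted p = 0.011). It was 0.0619 points without replicate number 1 (p = 0.11), 0.0574 without number 2 (p = 0.089) and 0.0808 without number 3 (p = 0.022, exact permutation tests). The pooled test took the samples of 4 different editors as 1 group. No version with the samples of each replicate number averaged was run for it.

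Without the ribozyme, Nd3 samples read 0.108%, 0.105% and 0.111% (0.108% ± 0.00303, SD, n = 3). Cytb read 0.128%, 0.127% and 0.1248% (0.127% ± 0.00163, SD, n = 3). Both stood below CoII and Atp6 in every sample. CoII read 0.175%, 0.174% and 0.173% (0.174% ± 0.000920, SD, n = 3). Atp6 read 0.208%, 0.202% and 0.199% (0.203% ± 0.00446, SD, n = 3). The order in this format was Nd3, Cytb, CoII, Atp6 with no overlap between neighbours, while with the ribozyme CoII and Atp6 overlapped.

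**Figure D2:**
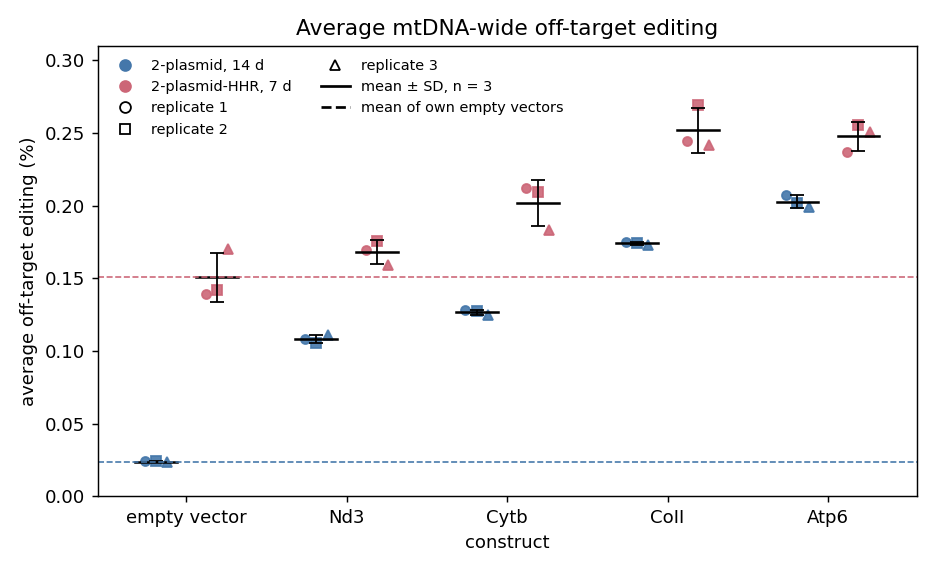
Average off-target editing over the mtDNA in percent for each sample of the empty vector and the 4 constructs, 2-plasmid in blue (14 d) and 2-plasmid-HHR in red (7 d), with the symbol giving the replicate number, the black line and bars the mean ± SD (n = 3) and the dashed lines the mean of each format's empty vectors (0.0238% and 0.151%). The red samples lie above the blue ones of the same gene, and the red empty vectors do so too.

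Taken as read, off-target percentages were therefore higher with the ribozyme in 4 of 4 constructs, by 0.0644 points on average. Over the own empty vectors the direction turned. As a fold, Nd3 was at 1.12 with the ribozyme and 4.54 without it, Cytb at 1.34 and 5.31, CoII at 1.67 and 7.30, and Atp6 at 1.64 and 8.51. The fold depends on the level of the background itself, so differences in percentage points are given next. The excess of Nd3 was 0.0173 points ± 0.0109 with the ribozyme and 0.0844 ± 0.00176 without it (standard error, background included). That of Cytb was 0.0512 ± 0.0135 and 0.103 ± 0.000957. CoII had an excess of 0.101 ± 0.0132 with the ribozyme and 0.150 ± 0.000555 without it. Atp6 had 0.0970 ± 0.0112 and 0.179 ± 0.00258. Most of the error on the ribozyme side came from its 3 empty vectors and is shared by the 4 constructs. With minus without the ribozyme, the excess differed by -0.0671 points ± 0.0111 for Nd3, -0.0516 ± 0.0135 for Cytb, -0.0489 ± 0.0132 for CoII and -0.0820 ± 0.0115 for Atp6, and the samples of the formats did not overlap at any of the 4 genes (exact permutation p = 0.10 each). Over the 4 constructs the difference was -0.0624 points ± 0.0105 (exact permutation test within constructs, p = 1.25e-05, again the smallest possible, with adjusted p = 3.12e-05). This test takes the empty-vector means as fixed, and their spread is in the standard error only. The call rests on the subtraction of each format's own background, and with the samples of each replicate number averaged p was 0.10 (exact permutation test).

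Taking each 2-plasmid-HHR sample against the empty vector of its own replicate number left the mean where it was and spread the samples. Nd3 then had an excess of 0.0299 and 0.0333 points in replicates 1 and 2, and replicate 3 was 0.0112 points below its empty vector (-0.0112). Cytb replicate 3 had 0.0133 points, against 0.0729 and 0.0675 in the others. Replicate 3 was the highest of the empty vectors, whereas among the edited samples it was the lowest off target in 3 of 4 constructs.

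The order of the genes by the share of off-target excess kept was not that of the on-target share. Nd3 kept 20.5% ± 12.9 of its excess, Cytb 49.9% ± 13.1, CoII 67.4% ± 8.81 and Atp6 54.2% ± 6.33 (standard error). The Nd3 value depended on empty-vector replicate 3, the highest of the 3: without that sample its excess was 0.0271 points and the share kept 32.1%. The same omission gave 59.3% for Cytb, 73.9% for CoII and 59.6% for Atp6, so that CoII then kept more of the excess than of its on-target editing (67.7%). With all 3 empty vectors, for Nd3 and Atp6 the share of off-target excess kept was below the share of on-target editing kept by more than its standard error. For Cytb the gap was within the standard error, and for CoII the shares were 67.4% and 67.7%. Of the 12 ribozyme samples, 10 kept a smaller share of the excess than of the on-target editing, both against the means of their gene without the ribozyme. All 12 use the same background mean, so they do not count independently. The count was made with all 3 empty vectors and depends on replicate 3 of these, as the shares above do.

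**Figure D3:**
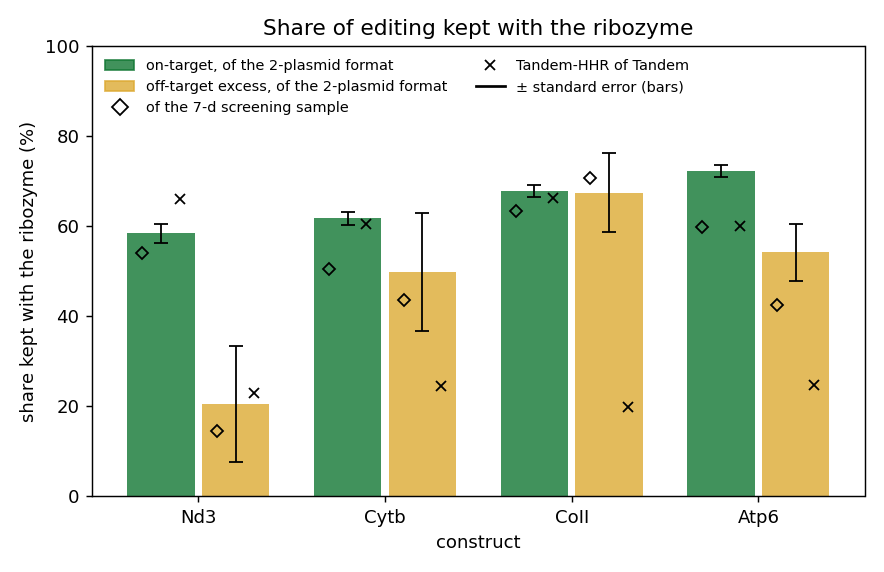
Share in percent of on-target editing (green bars) and of off-target excess over the own empty vectors (yellow bars) that each construct kept with the ribozyme, relative to the 2-plasmid format, with standard errors. Diamonds give the same shares relative to the single 7-d screening sample, and crosses those of Tandem-HHR relative to Tandem. The excess of both Tandem formats is over the Tandem empty vectors without the ribozyme. The bars of CoII are equal in height within their errors (67.7% and 67.4%), and those of Nd3 are furthest apart (58.4% and 20.5%).

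To set off-target against on-target editing in each sample, the excess was divided by the on-target percentage and expressed per 10 points of on-target editing. Nd3 had 0.00538, 0.00629 and 0.00228 points per 10 with the ribozyme, against 0.0133, 0.0128 and 0.0139 without it. All 3 Nd3 samples lay below those without the ribozyme. Cytb had 0.0160, 0.0142 and 0.00840 with it, and 0.0161, 0.0161 and 0.0156 without it. Here replicate 1 lay within the 2-plasmid range and the others below it. CoII had 0.0213, 0.0255 and 0.0206 with the ribozyme, and 0.0228, 0.0226 and 0.0225 without it, so that its ribozyme samples lay on both sides. Atp6 had 0.0178, 0.0202 and 0.0197, all below its 2-plasmid values of 0.0263, 0.0255 and 0.0252. The exact permutation p was 0.10 for Nd3 and Atp6, 0.20 for Cytb and 1 for CoII (adjusted p = 0.20, 0.27 and 1 over the 4 constructs). On average the ribozyme samples had 0.0148 points per 10 and the 2-plasmid samples 0.0194, a difference of -0.0046 ± 0.0024 (standard error, exact permutation test within constructs, p = 0.00075, adjusted p = 0.0013). The p-value again leaves out the spread of the empty vectors, which makes up most of that standard error. Without 2-plasmid-HHR replicate 3 and its empty vector, the difference was -0.00129 and no longer passed (p = 0.22, exact permutation test). Without that empty vector alone it was -0.0023 (p = 0.035, exact permutation test), and with the samples of each replicate number averaged p was 0.10 (exact permutation test).

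**Figure D4:**
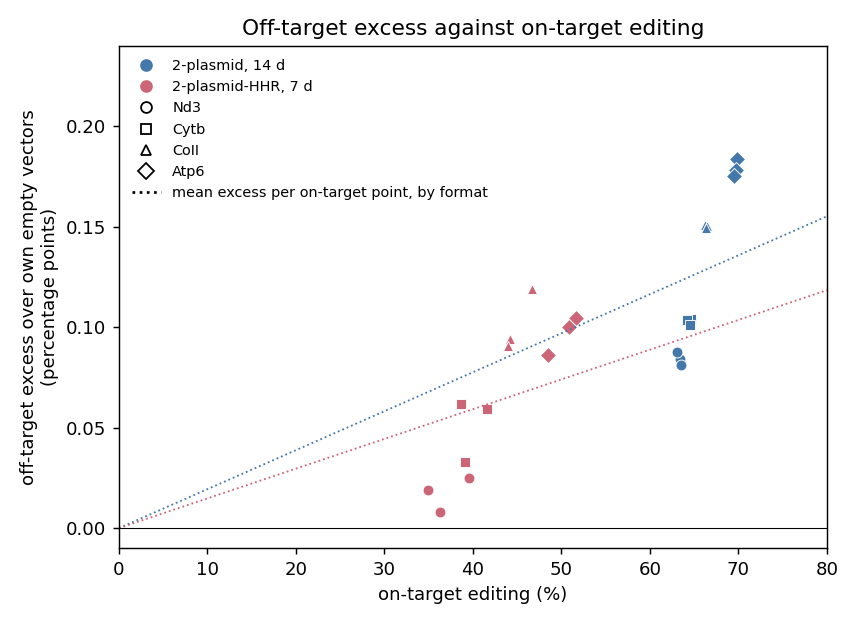
Off-target excess over the own empty vectors in percentage points against on-target editing in percent for the 24 edited samples, 2-plasmid in blue and 2-plasmid-HHR in red, with a symbol for each construct. Each dotted line has the slope of a format's mean excess per 10 on-target points (0.0194 and 0.0148). CoII and Atp6 lie on or above their format's line in both formats, and Nd3 lies below it.

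The files do not say which C:G pairs enter the off-target average. If the target itself were among the 5989 pairs of the mtDNA, it would add 0.00617 points for Nd3 with the ribozyme, which is 35.6% of its excess, and 7.41% to 13.0% of that of the other 3 genes. In the 2-plasmid format the same share would be 6.50% to 12.5%. Taking it off left the difference in excess between the formats at -0.0586 points (exact permutation p = 1.25e-05, the smallest it can give).

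The same 4 pairs were also sequenced once each at 7 d in the screening of the library, without the ribozyme and on another run (mean coverage 935 to 2064), which gives a comparison at the labelled day but with no replicate and no test. The study chose its lead pairs from this screening, by high on-target editing and a low off-target score. The screening values are therefore not independent of the choice of pairs. On-target editing there was 68.4% for Nd3, 78.7% for Cytb, 70.9% for CoII and 84.1% for Atp6, above the 14 d 2-plasmid samples at each gene. Every ribozyme mean was lower than its screening value, with 54.0%, 50.6%, 63.4% and 59.9% of it kept. The screening samples had average off-target percentages of 0.181%, 0.179%, 0.205% and 0.290%, over an empty vector of 0.0616% in the same run. That background was 1 sample at a mean coverage of 560, and the empty vector of another screening run read 0.121%. Relative to the screening samples over their own run's empty vector, the ribozyme samples kept 14.5% of the excess for Nd3, 43.5% for Cytb, 70.6% for CoII and 42.4% for Atp6. The excess per 10 on-target points was 0.0175, 0.0150, 0.0202 and 0.0272 in the screening samples, above the ribozyme mean for Nd3, Cytb and Atp6 and below it for CoII (0.0225). On-target editing was lower with the ribozyme at all 4 genes against the 7 d and the 14 d samples. The excess over the own empty vector was lower too, but at 7 d it depends on that single background. The part of the labelled day was not tested. The off-target percentages as read were above the 7 d screening value for Cytb and CoII and below it for Nd3 and Atp6, whereas they were above the 14 d samples at all 4 genes.

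In the Tandem format, in which both monomers are linked through a ribosome-skipping peptide on 1 plasmid, samples with and without the ribozyme shared the labelled day and the run. The share of on-target editing kept with the ribozyme there was 66.0% for Nd3, 60.4% for Cytb, 66.3% for CoII and 60.0% for Atp6, a mean of 63.2% against 65.0% in the 2-plasmid format. No error was calculated for the single Tandem shares. The on-target SD was 7.11 (Nd3) to 11.1 points (CoII) in Tandem and 3.32 (CoII) to 6.31 points (Atp6) in Tandem-HHR (n = 3). The log2 share was 0.038 ± 0.091 higher in the 2-plasmid format (standard error over 4 constructs, exact sign-flip test, p = 0.62, adjusted p = 0.62, where p cannot go below 0.12). In percentage points the sign was the opposite, with a difference of -7.29 (p = 0.25, exact sign-flip test). Without replicate number 3 in all formats the log2 difference was -0.0066. The off-target excess of both Tandem formats was taken over the Tandem empty vectors without the ribozyme. Mean coverage of the edited samples ran from 148 to 7117, the latter in Tandem-HHR Atp6 replicate 2, and did not exceed 795 in the others. In Tandem-HHR the excess was 0.0135 points (SD 0.0142) for Nd3 and 0.00912 (SD 0.00974) for Cytb. CoII had 0.0235 (SD 0.00660) and Atp6 0.0315 (SD 0.00457). The share of the excess kept was 23.0%, 24.5%, 19.7% and 24.6% for the same genes, with no error calculated. It was below the 2-plasmid share for Cytb, CoII and Atp6. For Nd3 it was above the 2-plasmid share (20.5% ± 12.9) by less than that standard error. These differences were not tested.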

How the data were processed

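mtDNA was amplified by long-range PCR in 2 overlapping fragments, prepared with Nextera XT and sequenced in paired reads. Per the study's methods and the labels, the authors trimmed reads with Trim Galore (cutadapt), mapped them with Bowtie 2 to the mtDNA of GRCm38 and counted bases with SAMtools and VarScan. The authors deposited 1 percent value per sample for on-target and for average off-target editing, and a coverage value averaged over the mtDNA. The positions averaged and the depth at the target are not given in the sources used here. In the tables read, 12 entries match no sample record and were not used. The genes, formats and comparisons were chosen with earlier results of these data known, and all 4 constructs and all their samples are named. From the deposited percentages, differences, ratios and standard errors by propagation were calculated with Python 3.11.15 and NumPy 2.4.6. Tests are exact permutation tests within constructs or exact sign flips, two-sided, with a threshold of 0.05 and Benjamini-Hochberg adjustment. The permutation test within constructs was checked on simulated independent values of equal spread. That simulation held no empty vectors, so it does not cover the error of the background. Alternatives were other summaries, backgrounds, units, comparison samples and left-out replicates or constructs. Same-numbered samples of the formats differed in day and run, and whether they shared anything else is not stated.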

Additional observations from a re-analysis of the deposited data

How the results depend on the processing

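The 3 ribozyme empty vectors enter the error of every excess of that format, and the depth at the target is not given. Without background subtraction, or with the mean of the empty vectors of both formats, the off-target difference reversed to 0.0644 points. With the samples of each replicate number averaged, p was 0.10 for the on-target difference (-22.9), the excess (-0.0624) and the excess per 10 points (-0.0046). Against the 7-d screening samples the differences were -32.5 and -0.0857 points on and off target, the latter over a single screening empty vector. Leaving out 1 replicate number gave -0.00649 to -0.00129 for the excess per 10 points (p from 0.0001 to 0.22), 0.0574 to 0.0808 points for the edited samples over their empty vectors, and -0.0066 to 0.0772 for the log2 share kept relative to Tandem. In percentage points that comparison reversed to -7.29. Whether same-numbered samples of the 2 formats deviated together cannot be told, as each correlation rests on 3 samples per format. Correlations of on-target deviations ran from -0.9997 for Cytb to 0.83 for CoII. Those of off-target deviations ran from -0.99 for Nd3 to 0.99 for Cytb. With the replicate block, p was 0.00049 for the on-target difference and for the excess, 0.0044 for the excess per 10 points and 0.016 for the edited samples against their empty vectors (exact tests), so it changed no call. Counting the 3 2-plasmid samples of a gene as 1, a choice made after seeing the data, gave p = 0.0039, 0.0039 and 0.027 (exact permutation tests). Leaving out 1 ribozyme empty vector at a time, also chosen after seeing the data, gave -0.068 to -0.0527 points for the excess and -0.00591 to -0.0023 for the excess per 10 points. Of the 69 alternatives with a test of a result that passed its own, 61 kept direction and call.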
